A study of Mus musculus with 12 samples.

Results

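The proteasome genes expressed in mouse osteoclast precursor cells were compared between cultures given RANKL with dexamethasone (RANKL+Dex) and cultures given RANKL alone. Members were the genes of the raw count table whose symbol begins with Psma, Psmb, Psmc, Psmd or Psme followed by a number and that had at least 120 counts over the 12 libraries. The inducible catalytic genes Psmb8 and Psmb9, the pseudogenes Psma5-ps and Psmb6-ps2, and the symbols Psmc3ip and Psme3ip1, which contain ip, were left out. The rule gave 41 of the 28293 genes in the table, and all 41 had enough counts to be tested. They were 16 genes of the core particle, 9 of the regulatory base, 8 of the regulatory lid, 3 assembly chaperones of the base and 5 activators. At the edge of the rule, the testis alpha subunit Psma8 was the member with the fewest counts (514 over all libraries), and the thymus beta subunit Psmb11 (27 counts) fell under the minimum.

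The cells were wild-type (WT) primary cells from the marrow of male C57BL/6J mice aged 6 months, grown out with M-CSF and then given RANKL, the cytokine that starts osteoclast formation. In the RANKL+Dex group, 6 cultures received 25 ng/ml RANKL with 1e-08 M (10 nM) dexamethasone, a synthetic glucocorticoid, for 24 h. In the RANKL group, 6 cultures received 25 ng/ml RANKL alone for 24 h. From the labels it is unclear whether this period came after an earlier 24 h of RANKL. The medium used for induction also held 10 ng/ml M-CSF, and each group had 1 library of each of the batches 1 to 6 that the labels name. The labels describe the steroid as a model in culture of glucocorticoid-induced osteonecrosis of the femoral head, at 1 dose and 1 time. The sources used here do not tie the 6 cultures of a group to separate mice, and p-values therefore describe variation among cultures.

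The proteasome degrades proteins tagged with ubiquitin. Its barrel-shaped core is built from outer rings of alpha subunits, which gate the entrance, and inner rings of beta subunits, among which Psmb5, Psmb6 and Psmb7 carry the proteolytic sites. The regulatory particle caps the barrel: its base holds a ring of ATPases that unfold substrates, and its lid holds the enzyme that removes ubiquitin. Activators are alternative caps that open the core without using ATP. In osteoclast precursors the proteasome is known for degrading the inhibitors of NF-kB after RANKL binds its receptor, and proteasome inhibitors block osteoclast formation.

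Totals ran from 16820193 to 28523595 counts in RANKL+Dex libraries and from 17674405 to 25451498 counts in RANKL libraries. All 10 osteoclast markers examined were expressed and together took 5.35% ± 0.14 of counts in RANKL+Dex libraries and 5.17% ± 0.10 in RANKL libraries (SD, n = 6 each; exact permutation test over the 12 libraries, two-sided, adjusted p = 0.0987 over 12 library measures). Among these 10 genes 3 rose, 1 fell and 6 did not pass, against 7.98% of all tested genes called higher and 7.55% lower. Ctsk (log2 fold change 0.20 ± 0.03, edgeR adjusted p = 0.000114), Acp5 (0.17 ± 0.04, adjusted p = 0.00930) and Nfatc1 (0.15 ± 0.04, adjusted p = 0.0273) rose. Itgb3 fell (-0.15 ± 0.04, edgeR adjusted p = 0.0132). The part of osteoclast markers in the results was not tested. None of the 5 lymphoid or 4 erythroid markers in the table had enough counts to be tested. Neutrophil markers were rare, at 0.000684% to 0.00110% of counts in RANKL+Dex libraries and 0.00259% to 0.00400% in RANKL libraries, and all 8 had counts. The 6 that could be tested all fell in RANKL+Dex. Mpo (30 counts in RANKL+Dex, 266 in RANKL) and Ltf (46 and 410) had enough counts to be tested only through the RANKL libraries. For these genes the direction was therefore partly set by the count filter. The 5 endothelial markers took 0.000142% to 0.000279% of counts in RANKL+Dex libraries and 0.000333% to 0.000529% in RANKL libraries. For each of these 2 lists the exact permutation test gave an adjusted p of 0.0130, and their part in the results was not tested. The stromal markers took 0.000339% to 0.00195% of counts in RANKL+Dex libraries and 0.000412% to 0.00168% in RANKL libraries (adjusted p = 0.609 by the same test), and 5 of 6 had counts. Among them Dcn rose, at 2.07 to 4.43 CPM in RANKL+Dex libraries and 0.388 to 0.850 CPM in RANKL libraries (edgeR adjusted p = 4.2e-06). Dcn was near the detection limit in RANKL libraries, with 75 counts in all against 415 in RANKL+Dex. It had enough counts to be tested through the RANKL+Dex libraries, where it was high. Col1a1 and Col1a2 had log2 fold changes of -0.83 ± 0.50 and -0.87 ± 0.47 and did not pass (edgeR adjusted p = 0.298 and 0.236, and 0.0377 and 0.0534 with batch as a block). The part of these genes was not tested either.

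The stretches of 250 bases before the annotated start are shown for the 2 members with the smallest p, Psmc1 and Psmd8, and for 2 catalytic members that differed in their calls, Psmb6 and Psmb5. They come from RefSeq on GRCm38.p6, are written 5′ to 3′ on the strand of the gene, and lie at chr12:100109952-100110201 (plus strand, Psmc1), chr7:29180674-29180923 (minus strand, Psmd8), chr11:70525107-70525356 (plus strand, Psmb6) and chr14:54617996-54618245 (minus strand, Psmb5). Capitals mark matches on either strand to the motifs listed after the sequences.
Psmc1: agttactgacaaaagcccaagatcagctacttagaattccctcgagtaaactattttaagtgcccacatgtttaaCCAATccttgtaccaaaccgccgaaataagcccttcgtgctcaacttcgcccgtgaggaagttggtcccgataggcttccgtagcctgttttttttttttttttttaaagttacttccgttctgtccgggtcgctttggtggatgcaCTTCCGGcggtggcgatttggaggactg
Psmd8: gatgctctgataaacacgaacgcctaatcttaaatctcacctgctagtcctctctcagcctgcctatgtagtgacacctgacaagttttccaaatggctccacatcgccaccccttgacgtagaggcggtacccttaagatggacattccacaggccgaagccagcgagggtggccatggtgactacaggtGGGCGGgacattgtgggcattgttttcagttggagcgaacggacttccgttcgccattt
Psmb6: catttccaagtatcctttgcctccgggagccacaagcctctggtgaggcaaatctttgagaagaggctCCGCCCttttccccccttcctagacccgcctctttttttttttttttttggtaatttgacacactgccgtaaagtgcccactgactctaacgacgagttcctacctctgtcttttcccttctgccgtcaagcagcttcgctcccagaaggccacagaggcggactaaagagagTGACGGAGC
Psmb5: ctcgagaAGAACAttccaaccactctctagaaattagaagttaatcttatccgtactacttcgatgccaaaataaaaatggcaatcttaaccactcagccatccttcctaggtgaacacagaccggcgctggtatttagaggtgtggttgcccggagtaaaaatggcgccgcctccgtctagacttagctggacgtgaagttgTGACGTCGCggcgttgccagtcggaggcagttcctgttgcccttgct

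The marked letters are a CCAAT box and an ETS core before Psmc1, a GC box before Psmd8, an antioxidant response element (ARE) core and a GC box before Psmb6, and an ARE core and a single arm of the glucocorticoid response element (GRE) before Psmb5. An ARE is the element that the factors NRF1 and NRF2 bind. Promoter entries, which also reach a short way past the start, were found for 34 of the 41 members. Psma8, Psmb1, Psmb2, Psmb7, Psmc3, Psmd3 and Psmd7 had no entry. The ETS core CCGGAAG was in the promoters of 11 of the 34 members (32.4%), against 7.83% of all 27025 genes with an entry. The GC box GGGCGG was in 20 (58.8%), against 35.4% of all genes. The ARE core TGACNNNGC was in 5 (14.7%), against 11.5%, and CCAAT was in 12 (35.3%), against 37.5%. The full GRE, searched as AGAACA and TGTTCT with any 3 bases between them, was in 0 of 34, against 0.0111% of all genes. A single arm, AGAACA, which is part of it, was in 5 (14.7%), against 18.2%. Of motifs bound by interferon-activated factors, TTCNNNGAA was in 0 of 34, against 8.13%, and GAAA repeated after any 2 bases was in 3 (8.82%), against 3.46%. All motifs were searched on both strands. The 27025 genes include genes not expressed in these cells, and motif shares among expressed genes or genes of like level were not computed. Whether the differences are particular to proteasome genes was therefore not tested. A match describes the letters in the window and was not linked to binding.

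With dexamethasone, 10 of the 41 proteasome genes rose and 0 fell (edgeR quasi-likelihood test, Benjamini-Hochberg adjusted p under 0.05 over 13775 tested genes), and 31 did not pass the test. The genes that rose were the core subunits Psma2, Psma5, Psmb2, Psmb4, Psmb6 and Psmb7, the base ATPases Psmc1 and Psmc5, and the lid subunits Psmd6 and Psmd8. The changes were small, between 1.10-fold and 1.19-fold. By group, 6 of 16 core genes, 2 of 9 base genes and 2 of 8 lid genes rose, as did 0 of 3 base chaperones and 0 of 5 activators. The members called higher were 24.4% of the 41. Over all tested genes 7.98% were called higher and 7.55% lower, and among the 5404 genes with mean levels between those of the lowest member apart from Psma8 (29.1 CPM) and the highest (467 CPM), 12.3% were called higher. CPM is the count relative to the size of the library, here scaled with TMM factors. At an unadjusted p under 0.05, 19 members (46.3%) differed, all higher in RANKL+Dex, against 14.5% of all tested genes higher at that p.

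The log2 fold change, RANKL+Dex over RANKL, was positive in 36 of the 41 members (87.8%), against 49.0% of all tested genes. Its median was 0.09 over the members, against -0.0034 over all tested genes. By group the median was 0.12 in the core, 0.08 in the base, 0.10 in the lid, 0.04 in the base chaperones and -0.05 in the activators. Differences between these groups were not tested. The 5 members with a negative value were the inducible core subunit Psmb10, the lid subunit Psmd3, and the activators Psme1, Psme2 and Psme2b. In 13 members the RANKL+Dex library was the higher in 6 of 6 batches, which over all tested genes held for 10.6%. In 3 members, Psmc1, Psmc5 and Psmd8, every RANKL+Dex library lay above every RANKL library, against 3.84% of all tested genes.

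**Figure D1:**
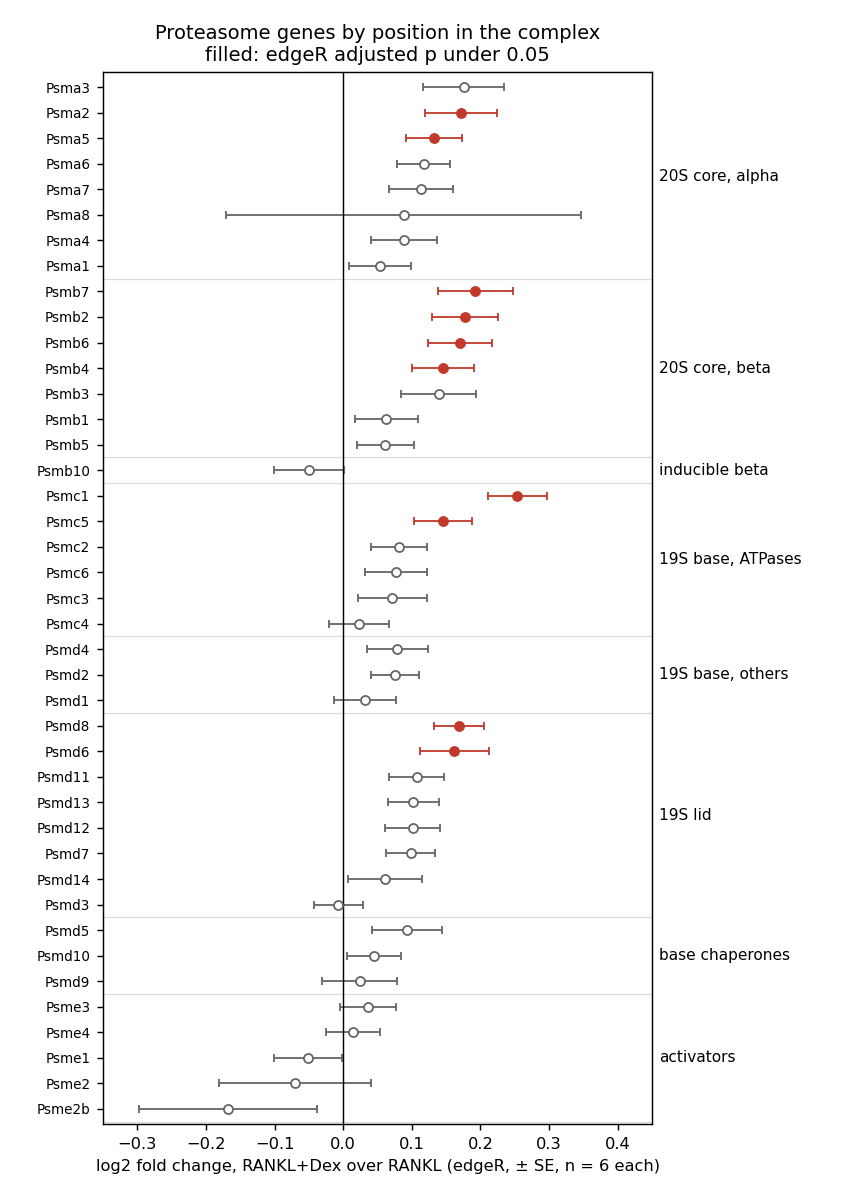
Log2 fold change (RANKL+Dex over RANKL, x axis) of each of the 41 members, grouped by position in the complex, with bars for ± SE from edgeR (n = 6 libraries per group) and filled points for an adjusted p under 0.05. The 10 filled points lie to the right of 0 in the core, base and lid, and the 3 lowest points are the activators Psme2b, Psme2 and Psme1.

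The count of members that rose depended on the libraries included. With batch as a replicate block, which the shared batch labels allow, 15 members rose, against 10.6% of all tested genes called higher in that fit, and the 5 added were Psma3, Psma6, Psmb3, Psmd11 and Psmd13. Leaving out 1 library at a time gave 4 to 17 members. Without RANKL+Dex replicate 1, 17 members rose (41.5%), against 9.22% of all genes tested in that fit. Without RANKL+Dex replicate 2 or 5, 5 members rose (12.2%), against 6.22% and 7.08% of all genes. Without RANKL replicate 1 or 6, 4 members rose (9.76%), against 7.24% and 6.39% of all genes. Leaving out both libraries of batch 2 left 2 members (4.88%), against 5.31% of all genes, and leaving out batch 6 left 3 (7.32%), against 5.35%. In those 2 fits the share of members called was at or near that of all genes. It was also only 2.52 percentage points above that of all genes without RANKL replicate 1. Without batch 5 it was 3.32 points above and without RANKL replicate 6 it was 3.36 points above, against 16.4 points in the fit reported. All these gaps are against all tested genes. Among genes in the level range of the members the share was larger in the fit reported (12.3%) and was not computed for the other fits. An excess over genes of like level is therefore not shown for those fits. RANKL+Dex replicate 1 was the lowest of its group in 21 of the 41 members, and RANKL+Dex replicate 5 was the highest in 22. Psmc1 and Psmd8 were called in all 28 settings examined, and no member was called lower in any of them. The number of settings passed was not computed for all tested genes. Whether members held across settings more often than other genes is therefore not known, here and where such numbers are given below.

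Short transcripts took a larger share of counts in RANKL+Dex libraries. Genes with transcripts under 1500 bases held 28.9% ± 0.53 of counts in RANKL+Dex libraries and 28.1% ± 0.30 in RANKL libraries (SD, n = 6 each; exact permutation test, two-sided, adjusted p = 0.0346). After a trend on transcript length and GC content was removed from each library, a step chosen after seeing the data, 5 members rose: Psmb6, Psmb7, Psmc1, Psmc5 and Psmd8. They were 12.2% of the members, against 8.13% of all tested genes called higher in that fit. The median log2 fold change of the members was then 0.06. In bulk samples, fewer cells of a type and less RNA per cell cannot be told apart.

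The alpha ring of the core had 8 members, all with a positive log2 fold change (median 0.12), and 2 rose. Psma2 had 85.1, 93.1 and 104 CPM (lowest, median and highest) in RANKL+Dex libraries, against 76.4, 82.9 and 90.8 CPM in RANKL libraries. It was higher in 6 of 6 batches and the groups overlapped. Its log2 fold change was 0.17 ± 0.05 (SE; edgeR adjusted p = 0.0363). Psma5 had 67.3, 73.0 and 77.0 CPM in RANKL+Dex libraries, against 61.5, 67.1 and 68.7 CPM in RANKL libraries. RANKL+Dex replicate 4 was the 1 library of its group within the RANKL range. Psma5 rose by 0.13 ± 0.04 on the log2 scale (edgeR adjusted p = 0.0359). AW209491, on the same strand, overlaps Psma2 with 3244 counts in all, against 22100 for Psma2, so reads may be shared. Both calls were lost in several settings: Psma2 passed in 16 and Psma5 in 12 of 28.

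Psma6 and Psma3 lay just outside the threshold. Psma6 had a value of 0.12 ± 0.04 (edgeR adjusted p = 0.0504, and 0.0233 with the block), and Psma3 had 0.18 ± 0.06 (adjusted p = 0.0536, and 0.0270 with the block). Psma7, Psma4 and Psma1 had values of 0.11 ± 0.05, 0.09 ± 0.05 and 0.05 ± 0.05 and did not pass. In 19.1% of Psma3 windows and 14.3% of Psma5 windows of 150 bases, the annotated transcript is identical to a transcript of another gene, so their counts may hold reads of copies. Psma8, which replaces Psma7 in testis proteasomes, was near the detection limit, with 1.36 to 3.23 CPM in RANKL+Dex libraries and 1.23 to 3.26 CPM in RANKL libraries. Libraries of the same batch lay within 0.31 CPM of each other. In batch 1 Psma8 had 3.23 CPM in the RANKL+Dex library and 3.26 CPM in the RANKL library, and in batch 6 it had 1.36 CPM in the RANKL+Dex library and 1.32 CPM in the RANKL library.

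In the beta ring, 4 of 7 constitutive subunits rose, with a median log2 fold change of 0.14 over the 7. Of the catalytic subunits, Psmb6, which cuts after acidic residues, had 159.6, 173 and 195 CPM in RANKL+Dex libraries, against 145, 158 and 163 CPM in RANKL libraries. RANKL+Dex replicate 1 was the 1 library of its group inside the RANKL range. Psmb6 rose by 0.17 ± 0.05 on the log2 scale (edgeR adjusted p = 0.0215). Psmb7, which cuts after basic residues, had 85.8, 102 and 111 CPM in RANKL+Dex libraries, against 81.4, 88.4 and 93.96 CPM in RANKL libraries. Again RANKL+Dex replicate 1 lay inside the RANKL range, and batch 1 was the 1 batch of 6 in which the RANKL library was higher. For Psmb7 the log2 fold change was 0.19 ± 0.05 (edgeR adjusted p = 0.0236). Nek6, on the opposite strand, overlaps Psmb7 with 3622 counts in all, against 23360 for Psmb7.

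Psmb5, which cuts after hydrophobic residues and is the main target of bortezomib, did not pass. It had 153, 164 and 180.4 CPM in RANKL+Dex libraries, against 154, 159 and 162 CPM in RANKL libraries. RANKL+Dex replicates 2, 3 and 5 lay above every RANKL library, and the other 3 lay below the RANKL median. The log2 fold change of Psmb5 was 0.06 ± 0.04 (edgeR adjusted p = 0.358), and whether it differed from those of Psmb6 and Psmb7 was not tested.

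Among the beta subunits without a proteolytic site, Psmb2 had 72.0, 79.9 and 87.7 CPM in RANKL+Dex libraries, against 65.9, 71.5 and 74.0 CPM in RANKL libraries. It was higher in 6 of 6 batches, with RANKL+Dex replicate 1 inside the RANKL range. Its log2 fold change was 0.18 ± 0.05 (edgeR adjusted p = 0.0178). Psmb4, whose tail in yeast reaches into the opposite ring of the core, had 135, 143 and 159 CPM in RANKL+Dex libraries, against 127, 131 and 137 CPM in RANKL libraries. RANKL+Dex replicates 1, 4 and 6 lay within the RANKL range and the other 3 lay above it. For Psmb4 the log2 fold change was 0.14 ± 0.05 (edgeR adjusted p = 0.0380), and it passed in 12 of 28 settings. Psmb3 had a value of 0.14 ± 0.06 (adjusted p = 0.102, and 0.0249 with the block), and Psmb1 of 0.06 ± 0.05, and neither passed.

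**Figure D2:**
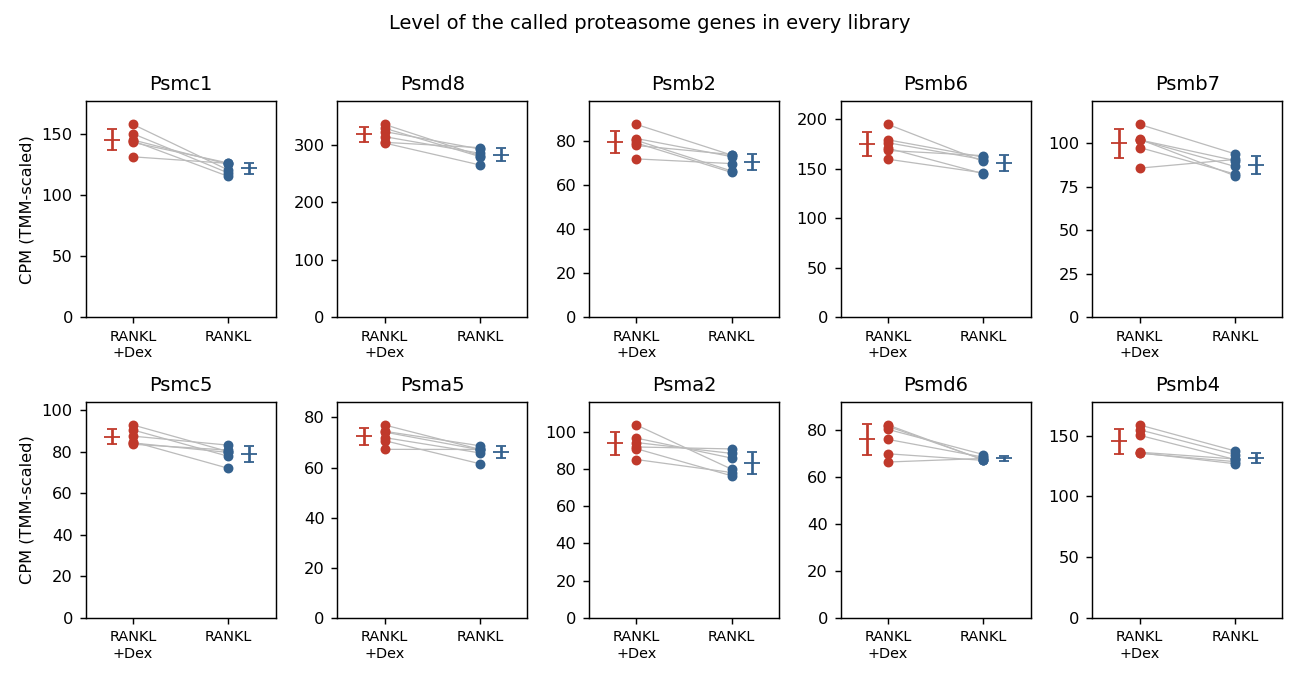
TMM-scaled CPM (y axis, from 0) of the 10 members called higher, with 1 point per library, lines joining the libraries of a batch, and mean ± SD beside the points (n = 6 per group). In Psmc1, Psmc5 and Psmd8 every RANKL+Dex point lies above every RANKL point, and in the other 7 the groups overlap.

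Inducible catalytic subunits can take the place of the constitutive ones in newly made cores and form the immunoproteasome: Psmb9 replaces Psmb6, Psmb10 replaces Psmb7 and Psmb8 replaces Psmb5. The member Psmb10 had 34.5, 36.5 and 38.8 CPM in RANKL+Dex libraries, against 35.2, 37.4 and 41.1 CPM in RANKL libraries. The groups overlapped over most of their range. Its log2 fold change was -0.05 ± 0.05 (edgeR adjusted p = 0.577). Of the inducible genes outside the rule, Psmb9 had 9.86, 10.6 and 12.6 CPM in RANKL+Dex libraries, against 11.6, 13.5 and 15.2 CPM in RANKL libraries. It was lower in 6 of 6 batches, and the groups overlapped. Psmb9 had a log2 change of -0.30 ± 0.08 (edgeR adjusted p = 0.0165). Psmb8 had 32.7 ± 2.2 CPM in RANKL+Dex libraries and 34.1 ± 1.3 CPM in RANKL libraries (SD, n = 6 each), and did not pass (log2 fold change -0.06 ± 0.05, edgeR adjusted p = 0.478).

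Within each library the inducible gene was set against the constitutive gene it replaces. For every 100 Psmb6 counts there were 6.28 ± 0.81 Psmb9 counts in RANKL+Dex libraries and 8.68 ± 0.96 in RANKL libraries (SD, n = 6 each). This ratio was lower in RANKL+Dex in 6 of 6 batches, and the groups overlapped only in that RANKL+Dex replicate 4 (7.48) lay above RANKL replicate 5 (7.35). For every 100 Psmb7 counts there were 36.7 ± 4.1 Psmb10 counts in RANKL+Dex libraries and 43.5 ± 5.1 in RANKL libraries, lower in 5 of 6 batches. Psmb8 stood at 19.9 ± 2.1 per 100 Psmb5 counts in RANKL+Dex libraries and 21.6 ± 0.82 in RANKL libraries, again lower in 5 of 6 batches. These are ratios of counts, not corrected for transcript length, and no p was computed for them because the members were chosen with earlier results known.

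**Figure D3:**
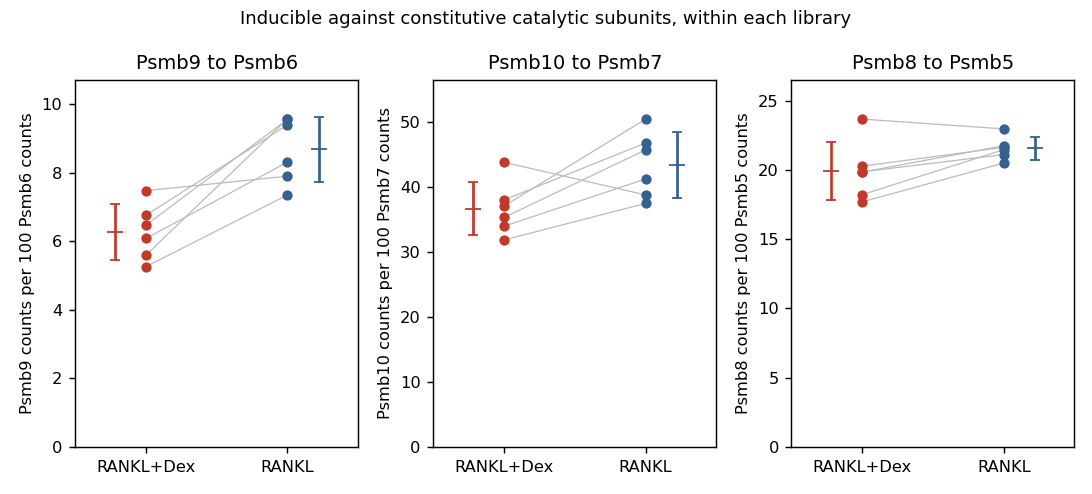
Counts of an inducible catalytic subunit per 100 counts of the constitutive subunit it replaces (y axis, from 0), with 1 point per library, lines joining the libraries of a batch, and mean ± SD (n = 6 per group). Psmb9 to Psmb6 is lower in RANKL+Dex in 6 of 6 batches, and the other 2 ratios in 5 of 6.

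In the base, all 9 members had a positive log2 fold change (median 0.08), and the 2 that rose were ATPases. Psmc1, an ATPase whose tail in yeast helps to open the gate of the core, is at chromosome 12, 100076413 to 100089664, on the plus strand of GRCm39 (ENSMUSG00000021178). It had 131, 145 and 158 CPM in RANKL+Dex libraries, against 115, 123 and 126 CPM in RANKL libraries. Every RANKL+Dex library lay above every RANKL library, and the lowest was replicate 1. Psmc1 had the smallest p and the largest positive fold change of the members, at 1.19-fold (log2 0.25 ± 0.04, edgeR adjusted p = 0.000679). Its promoter stretch is the first of those printed.

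Psmc5 had 83.7, 86.3 and 93.0 CPM in RANKL+Dex libraries, against 72.1, 79.97 and 83.3 CPM in RANKL libraries. The groups did not overlap, and the lowest RANKL+Dex library was close to the highest RANKL library. Psmc5 rose by 0.15 ± 0.04 on the log2 scale (edgeR adjusted p = 0.0252) and passed in 22 of 28 settings. The other ATPases did not pass: Psmc2 had a log2 fold change of 0.08 ± 0.04, Psmc6 of 0.08 ± 0.05, Psmc3 of 0.07 ± 0.05 and Psmc4 of 0.02 ± 0.04. Psmc3 overlaps Slc39a13 on the opposite strand, which had 49928 counts in all. None of the 3 base members without ATPase activity passed. The scaffold Psmd2 had 458 to 508 CPM in RANKL+Dex libraries and 428 to 467 CPM in RANKL libraries, and was higher in 6 of 6 batches (log2 fold change 0.08 ± 0.04, edgeR adjusted p = 0.165). The ubiquitin receptor Psmd4 had a log2 fold change of 0.08 ± 0.04, and the scaffold Psmd1 of 0.03 ± 0.05.

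In the lid, 7 of 8 members had a positive log2 fold change (median 0.10), and 2 rose. Psmd8, a lid subunit that in yeast joins late in assembly, is at chromosome 7, 28873613 to 28880126, on the minus strand of GRCm39 (ENSMUSG00000030591). It had 303, 318 and 335 CPM in RANKL+Dex libraries, against 265, 283 and 295 CPM in RANKL libraries. All RANKL+Dex libraries lay above all RANKL libraries. Psmd8 averaged 318 ± 13 CPM in RANKL+Dex libraries and 283 ± 11 CPM in RANKL libraries (SD, n = 6 each), which is 0.17 ± 0.04 higher on the log2 scale (SE; edgeR adjusted p = 0.00464).

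Psmd6 had 66.2, 77.9 and 81.9 CPM in RANKL+Dex libraries, against 66.9, 67.5 and 69.4 CPM in RANKL libraries. RANKL+Dex replicate 1 was the lowest of all 12 libraries, and replicates 2, 4, 5 and 6 lay well above the narrow RANKL range. Psmd6 rose by 0.16 ± 0.05 on the log2 scale (edgeR adjusted p = 0.0371) and passed in 13 of 28 settings. The next 4 lid subunits by p had log2 fold changes close to each other, Psmd11 of 0.11 ± 0.04, Psmd13 of 0.10 ± 0.04, Psmd12 of 0.10 ± 0.04 and Psmd7 of 0.10 ± 0.04, and did not pass (edgeR adjusted p between 0.0741 for Psmd7 and 0.100 for Psmd12). With the block, Psmd11 and Psmd13 passed (edgeR adjusted p = 0.0437 and 0.0498). Psmd14, the enzyme that removes ubiquitin chains, had a value of 0.06 ± 0.05, and Psmd3 of -0.01 ± 0.04.

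The chaperones Psmd5, Psmd9 and Psmd10, which guide the ATPase ring together and leave the finished particle, did not pass. Psmd5 had the smallest p of the 3, with 74.4, 83.4 and 90.8 CPM in RANKL+Dex libraries, against 69.1, 79.6 and 82.5 CPM in RANKL libraries. RANKL+Dex replicates 2, 3, 4 and 6 lay above every RANKL library, and replicates 1 and 5 lay within the RANKL range. The log2 fold change of Psmd5 was 0.09 ± 0.05 (edgeR adjusted p = 0.246). Psmd10, also known as gankyrin, had a log2 fold change of 0.04 ± 0.04 and Psmd9 of 0.02 ± 0.05.

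None of the 5 activators passed, and 3 of them had negative log2 fold changes. Psme1 and Psme2 together form the interferon-inducible cap that is linked to the making of antigenic peptides. Psme1 had 41.7, 43.3 and 47.1 CPM in RANKL+Dex libraries, against 39.6, 45.9 and 48.0 CPM in RANKL libraries. It was lower in RANKL+Dex in 4 of 6 batches, and the groups overlapped. For Psme1 the log2 fold change was -0.05 ± 0.05 (edgeR adjusted p = 0.538). Psme2 had 30.8, 44.8 and 50.7 CPM in RANKL+Dex libraries, against 38.9, 45.3 and 52.2 CPM in RANKL libraries. RANKL+Dex replicates 1 and 6 were the lowest of all libraries and the others lay within the RANKL range. The log2 fold change of Psme2 was -0.07 ± 0.11 (edgeR adjusted p = 0.738).

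Psme2b is a near-identical copy of Psme2, and its reads cannot be told from those of Psme2 with certainty. The annotated transcripts are identical at 789 of 794 aligned bases (99.4%). Psme2b did not pass (log2 fold change -0.17 ± 0.13, edgeR adjusted p = 0.432), and its share of the joint counts ran from 29.8% to 58.0% in RANKL+Dex libraries and from 35.7% to 49.4% in RANKL libraries. Added together, Psme2 and Psme2b had 72.2 ± 7.6 CPM in RANKL+Dex libraries and 78.1 ± 4.5 CPM in RANKL libraries (SD, n = 6 each), and the groups overlapped. The nuclear activator Psme3 had a log2 fold change of 0.04 ± 0.04 and Psme4, the large cap known for acetylated histones, of 0.01 ± 0.04. Set within libraries against the base ATPase that rose most, there were 30.1 ± 1.3 Psme1 counts per 100 Psmc1 counts in RANKL+Dex libraries and 37.2 ± 2.0 in RANKL libraries. That ratio was lower in RANKL+Dex in 6 of 6 batches and the groups did not overlap, Psmc1 having been picked for its rise.

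Summed over the 41 members, transcripts took 4738 ± 204 CPM in RANKL+Dex libraries and 4436 ± 82 CPM in RANKL libraries (SD, n = 6 each), a difference of 6.81% of the RANKL mean. The core took 1662 ± 88 CPM in RANKL+Dex libraries and 1527 ± 49 CPM in RANKL libraries (8.85% higher). The base took 1403 ± 63 CPM in RANKL+Dex libraries and 1320 ± 33 CPM in RANKL libraries (6.30% higher), and the lid took 1136 ± 42 CPM in RANKL+Dex libraries and 1056 ± 15 CPM in RANKL libraries (7.52% higher). In all 3 the RANKL+Dex library was the higher in 6 of 6 batches, and the groups overlapped through RANKL+Dex replicate 1. The base chaperones took 176 ± 9.3 CPM in RANKL+Dex libraries and 168 ± 5.8 CPM in RANKL libraries, higher in 4 of 6 batches. The activators took 361 ± 12 CPM in RANKL+Dex libraries and 364 ± 7.1 CPM in RANKL libraries, higher in 3 of 6 batches. The spread of the summed core was larger among RANKL+Dex libraries, where replicate 1 had 1524 CPM and replicate 5 had 1778 CPM. Within batches 1 to 6, the median log2 difference of the 41 members was 0.02, 0.15, 0.07, 0.05, 0.16 and 0.09.

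**Figure D4:**
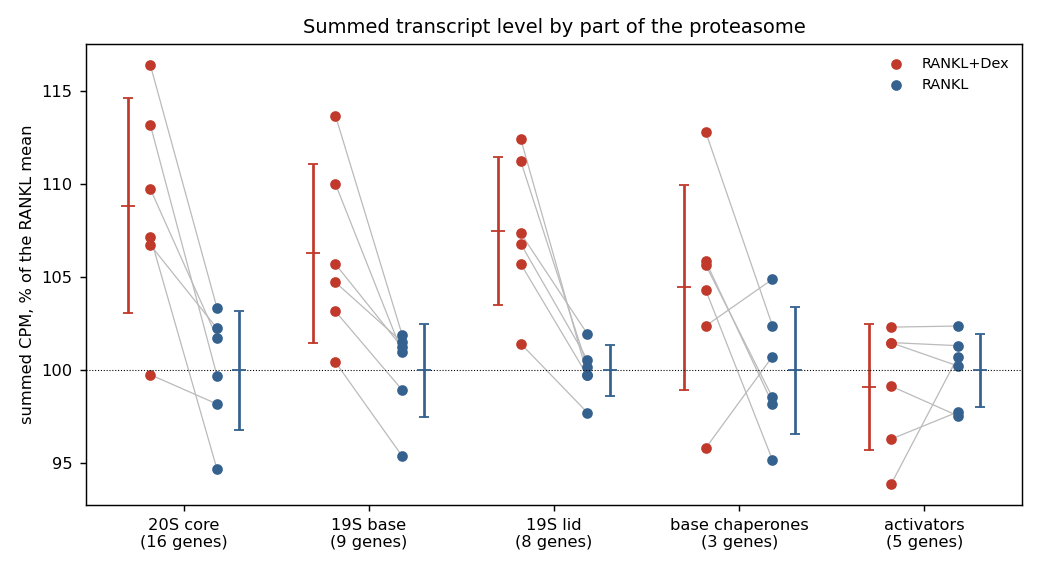
Summed CPM of each group of genes as a percentage of its RANKL mean (y axis, which does not start at 0), with 1 point per library, lines joining the libraries of a batch, and mean ± SD (n = 6 per group). The core, base and lid are higher in RANKL+Dex in 6 of 6 batches, and the activators in 3 of 6.

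Apart from the count ratios above, levels were compared between genes per length, as CPM per kb of the merged exons of protein-coding transcripts. In RANKL libraries the highest levels per kb were those of Psmb6 (195), Psmb5 (176), Psmd2 (154) and Psma6 (152). The lowest were those of Psma8 (1.16), Psmd9 (11.1), Psmd5 (17.8) and Psme4 (18.7). In RANKL+Dex libraries the same quantity was 219 for Psmb6, 183 for Psmb5 and 1.23 for Psma8. Among the genes for catalytic subunits in RANKL libraries, Psmb7 stood at 75.5 per kb and the inducible Psmb10 at 28.9 per kb. The order depends on the exons counted: over the exons of all transcripts Psmb6 ranked 5 of 41 in RANKL libraries and Psmb5 ranked 1, and Psmb7 stood at 25.6 per kb and Psmb10 at 22.2 per kb.

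Genes that serve the proteasome were examined beside its subunits. None of the 5 assembly factors of the core passed, and Pomp, which matures the core, had 102 ± 6.7 CPM in RANKL+Dex libraries and 95.5 ± 4.4 CPM in RANKL libraries (SD, n = 6 each; log2 fold change 0.10 ± 0.05, edgeR adjusted p = 0.175). Of 8 other components and associated proteins, 2 rose and 0 fell, against 7.98% of all tested genes called higher and 7.55% lower. Sem1, a small lid subunit whose symbol lies outside the rule, had 52.5, 60.0 and 73.0 CPM in RANKL+Dex libraries, against 46.5, 48.4 and 56.6 CPM in RANKL libraries. It was higher in 5 of 6 batches, and its log2 fold change was 0.27 ± 0.07 (edgeR adjusted p = 0.0181). Txnl1, a thioredoxin bound to the regulatory particle, had 98.3 ± 5.5 CPM in RANKL+Dex libraries and 87.3 ± 4.2 CPM in RANKL libraries (log2 fold change 0.17 ± 0.04, edgeR adjusted p = 0.0165).

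NRF1, encoded by Nfe2l1, is the factor known for raising proteasome gene expression when proteasome activity falls short. Of 10 genes of this pathway, 0 rose and 3 fell, against 7.98% of all tested genes called higher and 7.55% lower. NRF1 protein was not measured, and its part in the results was not tested. Nfe2l1 itself had 249 ± 7.8 CPM in RANKL+Dex libraries and 242 ± 4.3 CPM in RANKL libraries (edgeR adjusted p = 0.395). Ddi2, the protease that releases NRF1 in active form, had 85.3, 93.3 and 97.3 CPM in RANKL+Dex libraries, against 98.1, 102 and 104 CPM in RANKL libraries. The groups did not overlap. The log2 fold change of Ddi2 was -0.14 ± 0.04 (edgeR adjusted p = 0.0165). The small Maf genes Mafg and Maff, which encode partners of NRF1 on DNA, also fell, with log2 fold changes of -0.13 ± 0.04 (edgeR adjusted p = 0.0174) and -0.24 ± 0.07 (adjusted p = 0.0304).

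Upstream in the pathway, 1 of 4 ubiquitin genes rose, the polyubiquitin gene Ubb, with 278 ± 9.8 CPM in RANKL+Dex libraries and 257 ± 6.4 CPM in RANKL libraries (SD, n = 6 each; log2 fold change 0.12 ± 0.03, edgeR adjusted p = 0.0216). Of 8 genes for activating enzymes and shuttle proteins, 1 rose and 0 fell, and with the block Rad23b also passed, making 2. The gene that rose in both fits was Sqstm1, which carries ubiquitinated cargo, with 942 ± 41 CPM in RANKL+Dex libraries and 865 ± 26 CPM in RANKL libraries (edgeR adjusted p = 0.0226). Of 12 ubiquitin ligase genes, 11 were tested, 2 rose and 2 fell. Beside each list in this paragraph, 7.98% of all tested genes were called higher and 7.55% lower, and 10.6% higher with the block. Cblb, a ligase known for restraining tyrosine kinase signalling, had 168, 179 and 184 CPM in RANKL+Dex libraries, against 138, 149 and 154 CPM in RANKL libraries. The groups did not overlap. Cblb rose by 0.26 ± 0.04 on the log2 scale (edgeR adjusted p = 0.000106). Birc2 also rose (0.20 ± 0.05, adjusted p = 0.00979), and Cbl (-0.17 ± 0.04, adjusted p = 0.0105) and Smurf1 (-0.14 ± 0.03, adjusted p = 0.0125) fell. The muscle atrophy ligase gene Fbxo32 did not pass (-0.28 ± 0.12, edgeR adjusted p = 0.123), and Trim63, another such gene, had too few counts to be tested. All 17 Trim63 counts were in RANKL+Dex libraries, at 0.0592 to 0.265 CPM and in 6 of 6, and RANKL libraries had 0.

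**Figure D5:**
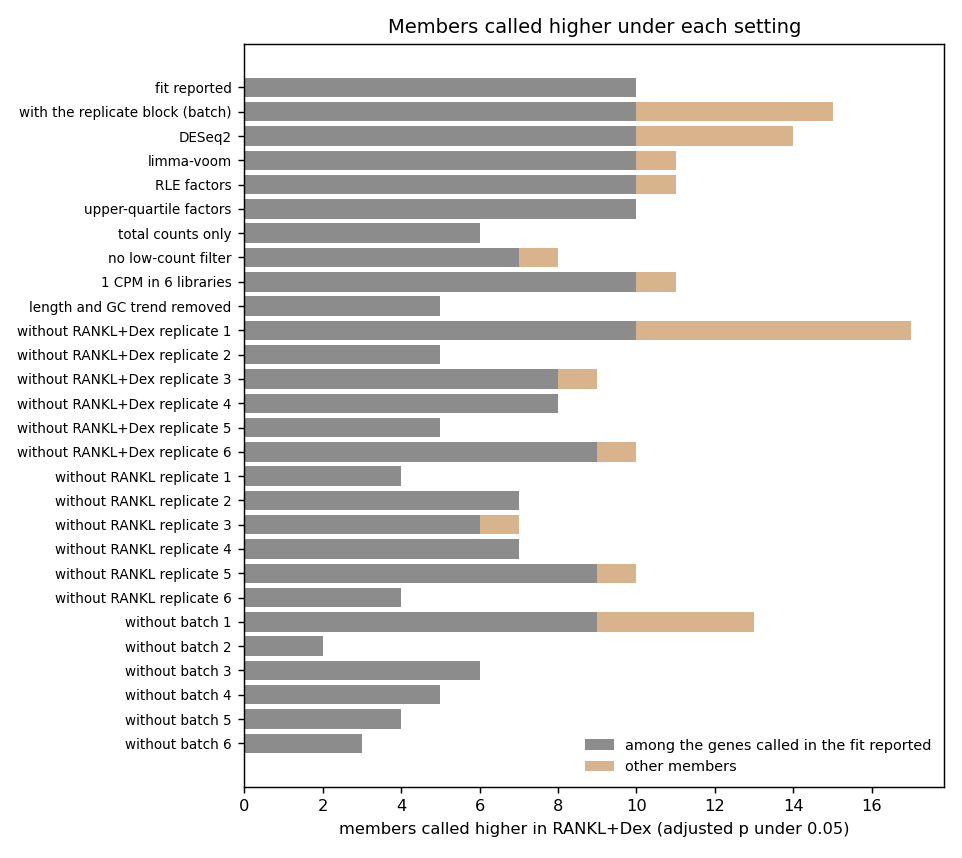
Number of members called higher in RANKL+Dex (x axis, from 0; adjusted p under 0.05) in the fit reported and in each of 27 other settings, split into genes called in the fit reported and other members. The counts lie between 2 (without batch 2) and 17 (without RANKL+Dex replicate 1), and the bars are shortest where a batch or a RANKL library is left out.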

How the data were processed

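RNA sequencing gave 1 library for each of 12 cultures. The authors deposited whole-number raw read counts per gene for 28293 genes. The submitters' processing notes name the GRCm39 build and, without a role or order, DESeq 1.28.0, StringTie 1.3.3b, HISAT2 2.1.0 and FastQC 0.11.5. How reads were counted, with or without strand and with what handling of multiple matches, is not given in the sources used, so genes that overlap or share sequence are uncertain.

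Library names in the labels tie each column to its sample. Of these, 13775 passed filterByExpr (minimum count 10, minimum total 15) and were tested with edgeR 4.0.16 in R 4.3.3 (quasi-likelihood, TMM factors, two-sided, Benjamini-Hochberg, threshold 0.05), and SE values were derived from the F statistic. limma 3.58.1 (voom), DESeq2 1.42.0 and other scalings and filters were alternatives. The fit was tested on simulated data, with changed genes drawn from all tested genes. It called 23 of 50 genes changed 1.2-fold (46%), 39 of 50 changed 1.5-fold (78%) and 50 of 50 changed 4-fold. Of its 161 calls, 6 were false. With the block it called 20 of 50 genes changed 1.2-fold (40%). Changes as small as those of the members can therefore be missed. The simulated counts held no batch effect, so they cannot show how the block performs where batches differ. They also held far fewer changed genes than the 2139 called in the data, so the shares recovered need not hold there. The 12 library measures were compared with exact permutation tests (924 arrangements, smallest possible p 0.00216). Merged exon lengths came from GENCODE M21 by Ensembl ID.

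The labels give both groups the same batch numbers, which pairs the libraries by label. Deviations from the group means correlated between same-numbered libraries at a mean r of 0.165, against -0.0329 for different numbers. Between libraries of a group, chi-square per gene ran from 3.22 to 19.6, so no library repeated another.

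The members and gene lists were chosen with earlier results of these data known. Values by library are given for members past the threshold, for the member of each group with the smallest p, and for Psmb5, Psmb6, Psmb7, Psmb10, Psme1 and Psme2. From each related list, up to 4 genes past the threshold are named, or otherwise the gene with the smallest p. Nfe2l1, Fbxo32 and the genes outside this rule were named after their values were seen.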

Additional observations from a re-analysis of the deposited data

Results flagged for a closer look

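Of 110 sets of 6 libraries examined (86 for single genes and 24 for library measures), 8 held a library whose distance to the nearest other library was large against the range of its group, and chance gives about 1 in 20 such sets. Psma4 had 63.2 CPM in RANKL replicate 6, against 70.3 to 73.1 CPM in the other RANKL libraries. Psmb1 had 99.96 CPM in RANKL+Dex replicate 1, against 112 to 119 CPM in the other RANKL+Dex libraries. Psmc4 had 84.7 CPM in RANKL replicate 1, against 91.1 to 94.4 CPM in the others of its group. Psmd9 had 31.1 CPM in RANKL replicate 4, against 27.6 to 28.8 CPM in the others. Psme1 had 39.6 CPM in RANKL replicate 5, against 45.1 to 48.0 CPM in the others.

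The remaining 3 were shares of marker genes of other cell types, all very low. Dendritic cell markers took 0.000294% of counts in RANKL+Dex replicate 4, against 0.000446% to 0.000487% in the others of its group. Lymphoid markers took 1.13e-05% of counts in RANKL replicate 2, against 5.08e-05% to 7.07e-05% in the others. Erythroid markers took 5.23e-05% of counts in RANKL+Dex replicate 1, against 7.01e-06% to 2.38e-05% in the others.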

How the results depend on the processing

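The count of members called higher was 10 (24.4%, against 7.98% of all genes) in the fit reported and 14 (34.1%, against 9.23%) with DESeq2. It was 11 (26.8%) with limma-voom, RLE factors or a filter of 1 CPM, against 7.83%, 8.18% and 8.79% of all genes. With upper-quartile factors it was 10 (24.4%, against 7.64%), and with no low-count filter 8 (19.5%, against 3.38% of 28293 genes). With total counts as the only scaling it was 6 (14.6%, against 6.59% of all genes). At an adjusted p under 0.01 it was 2, and the share of all genes at that threshold is not given here. With batch as a replicate block the count at 0.05 was 15 (36.6%, against 10.6% of all genes), and the block changed no other member's call. It was 5 (12.2%, against 8.13% of all genes) with the length and GC trend removed, an alternative chosen after seeing the data. Leaving out 1 library gave 4 to 17 members (17 without RANKL+Dex replicate 1, 5 without RANKL+Dex replicate 2 or 5, 4 without RANKL replicate 1 or 6). Leaving out a batch gave 13, 2, 6, 5, 4 and 3 for batches 1 to 6, which is 31.7%, 4.88%, 14.6%, 12.2%, 9.76% and 7.32% of the members, against 8.53%, 5.31%, 5.78%, 5.04%, 6.44% and 5.35% of all genes tested in the same fits. Without batch 2 the members' share was thus below that of all genes. With 1 library left out, 6.18% to 9.22% of all genes were called higher. No member was called lower in any setting. The median log2 fold change of the members stayed between 0.07 and 0.10 with 1 library left out. Over all tested genes, 2139 were called, 1626 to 2493 with 1 library left out, 1339 without batch 4 and 1409 without batch 6. For these counts the cause was not tested, except that fewer libraries enter each fit that leaves some out. Of 1107 values of single members under the alternatives, 15 changed sign, none of them called. With 1 library left out, Psma8 ran from -0.068 to 0.31, Psmc4 from -0.0040 to 0.043, Psmd3 from -0.025 to 0.0094, Psmd9 from -0.010 to 0.051, Psme2 from -0.13 to 0.0068 and Psme4 from -0.0025 to 0.036 (log2 fold change). Without a batch, Psmd3 was 0.0087, 0.0032 and 0.0063 (batches 2, 3 and 4), Psmd9 was -0.016 (batch 5) and Psme2 was 0.027 (batch 6). Depth limits Psma8, at about 2 CPM, most among the members.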
